A study of Mus musculus with 6 samples.

Results

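Collagens, laminins, matrix glycoproteins and the enzymes that fold and cross-link collagen were followed as a group of 46 genes in sorted mouse MC38 colon carcinoma cells. The members are a list of gene symbols, and every probe annotated to them on the Illumina bead array was taken. Of the 46 genes, 42 had at least 1 probe named here, with 98 probes in all, and 35 were measured, meaning that a probe exceeded background, with a detection p below 0.05, on 3 or more of the 6 arrays. These 35 stand among 9483 genes measured in the series. The name of the group fits most members, but Sdc1 is a proteoglycan of the cell surface, and Plod1, Plod2 and Serpinh1 act inside the cell on new collagen.

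The 2 groups were DT, with 3 samples given diphtheria toxin, and PBS, with 3 samples given the saline vehicle. All mice of both groups carried the CD11bDTR transgene, which puts the receptor for the toxin under the promoter of CD11b and is meant to let the toxin kill myeloid cells, so that every control carries it too. MC38 cells had been injected into the spleen and seeded the liver, injections into the abdomen followed on days 7 and 9, and livers were taken on day 10, when MC38 cells were isolated by cell sorting. The labels give neither the age of the mice, nor the sort gate, nor whether a sample is 1 mouse or a pool, so every p-value here is set against a spread between samples that could be technical only.

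Fibrillar collagens form the cable-like fibres of connective tissue, and type IV collagen, laminins, nidogens and perlecan form the sheet-like basement membrane under epithelia and around vessels. A collagen or laminin molecule is a trimer, so that each cell has to make several chains together. Lysyl hydroxylases and the chaperone Hsp47 prepare the chains in the endoplasmic reticulum, and lysyl oxidases cross-link them outside. In liver metastases, matrix is made both by stromal cells of the liver, such as stellate cells and fibroblasts, and by some tumour cells. In sorted bulk RNA, more cells of a type and more RNA per cell cannot be told apart.

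Median signals of the 6 arrays lay between 135.03 and 153.77, and 36.7% to 40.6% of the 45281 probes were above background. Over all genes, 103 of 9483 (1.09%) passed an adjusted p of 0.05 in limma, 31 higher (0.327%) and 72 lower (0.759%) in DT. This split depends on the scaling. When arrays were set to a common median, 20 were called higher and 7 lower, and the median gene shifted to 0.17 on the log2 scale, so that changes are read relative to that shift. Markers that define a carcinoma of the colon were mostly missing from both groups. Of 10 epithelial markers, Epcam, Krt18, Krt19, Krt20, Cldn3, Cldn4 and Vil1 were not above background on any array, while Krt8 was above background on all of them (-0.12 on the log2 scale, SE 0.22). Of 10 hepatocyte markers, 7, among them Alb and Apoa1, were not above background on any array.

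Of the 35 measured matrix genes, 2 rose after DT and none fell in limma with adjustment over all genes. Lama2, a laminin chain, rose by 1.59 on the log2 scale (SE 0.29), and Col5a2, a chain of type V collagen, rose by 1.58 (SE 0.30), each with an adjusted p of 0.0459 in limma. They are 5.71% of the measured members, where 0.327% of all genes were called higher, but Lama2 was measured mainly through the DT arrays. At an unadjusted p under 0.05 there were 8 members higher (22.9%) and 1 lower (2.86%), against 12.0% higher and 11.9% lower over all genes (23.9% in both directions). The whole list had a median difference of 0.30 on the log2 scale, with 26 of 35 values above 0 (74.3%), beside a median of 0.01 and 51.3% over all genes. The members were chosen with earlier results of these data known, so the shares given here are descriptions and not a test. In 8 members every DT array lay above every PBS array (22.9%, background 15.0%), and in 2 every DT array lay below (5.71%, background 14.0%).

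In 6 of the 35 genes some arrays were not above background. Such a gene can pass the filter mainly through its brighter group, which favours a difference without forcing one. Over the 29 members above background on all 6 arrays, 1 was called higher, Col5a2 (3.45%, against 0.304% of such genes in the series), the median was 0.25, 21 were above 0 and 6 had an unadjusted p under 0.05 in the higher direction (20.7%, against 12.0% of the 8217 genes of the series above background on all arrays). With no filter on dim probes, limma called no gene of the series, while 2942 had an unadjusted p below 0.05. The 42 members with a probe had a median of 0.18.

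**Figure D1:**
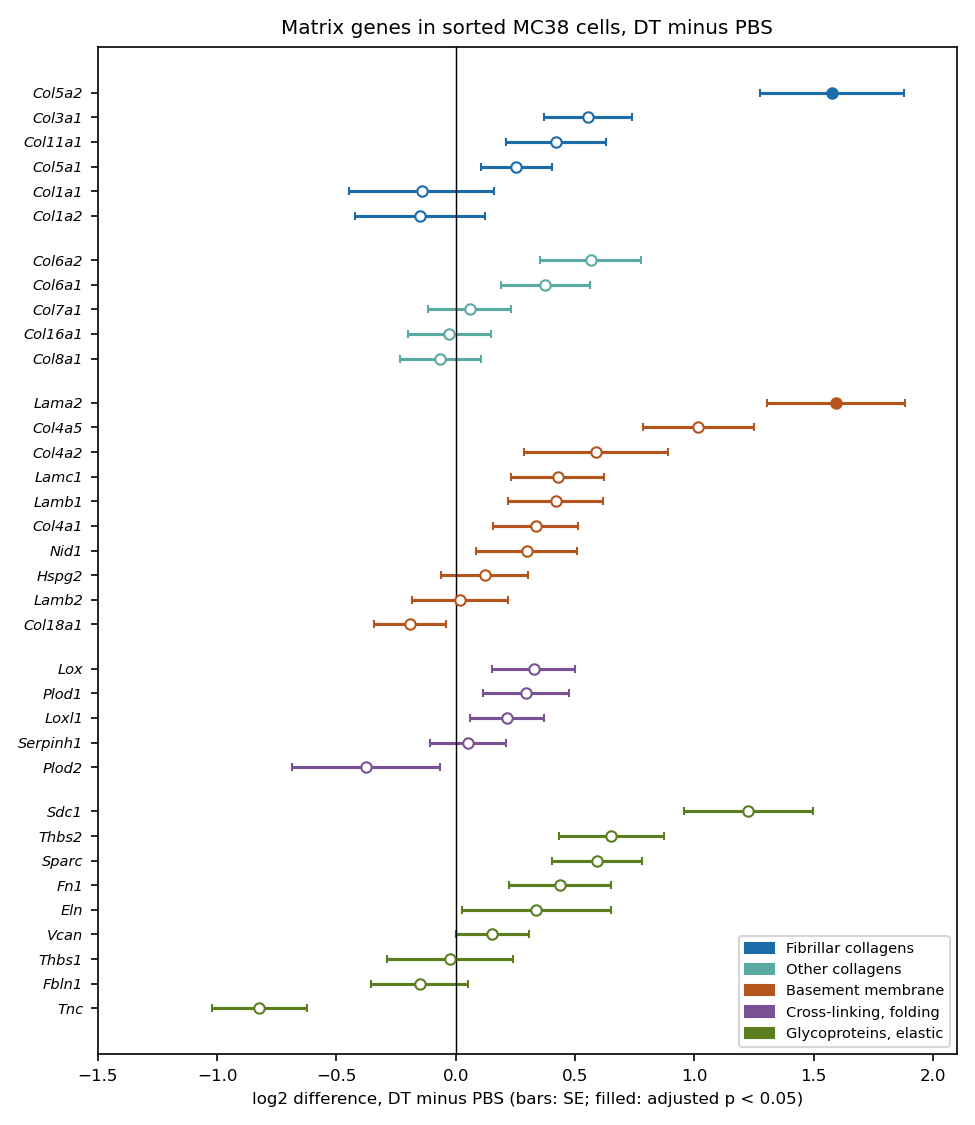
Difference in log2 signal, DT minus PBS, for each of the 35 measured matrix genes, by class; points are limma estimates, bars are standard errors, and filled points have an adjusted p under 0.05. Lama2 at 1.59 and Col5a2 at 1.58 are the filled points, and Tnc at -0.82 is the lowest.

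Among fibrillar collagens, 6 of 7 genes were measured, and the median difference was 0.34 on the log2 scale. Of the 6, 1 rose (16.7%, against 0.327% of all genes). Col5a2 encodes a minor chain that sits inside fibrils of type I collagen and helps to set their diameter. Its normalized log2 signal was 7.64, 7.64 and 6.70 in the DT arrays, against 6.27, 5.26 and 5.72 in the PBS arrays. All DT values lay above all PBS values, and the difference corresponds to 2.98-fold. Before normalization the bead signals of this probe were 263.4, 385.0 and 226.9 in DT, against 219.4, 143.5 and 182.9 in PBS, which puts it among the dim probes. Averaging all measured probes of the gene ended the call (0.94, adjusted p = 0.0701 in limma), and without background correction the difference was 0.70, still past the threshold.

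Col3a1, the chain of type III collagen found in soft tissue and in scarring liver, had bright probes. Its log2 signal was 13.45, 13.61 and 13.54 in DT, against 13.09, 13.24 and 12.60 in PBS. The groups did not overlap, PBS replicate 3 was the lowest array, and the difference of 0.56 (SE 0.18) did not pass (adjusted p = 0.12 in limma). Col5a1, the partner chain of Col5a2, had log2 signals of 13.33, 13.26 and 13.37 in DT, against 13.22, 12.93 and 13.05 in PBS, and its difference of 0.25 (SE 0.15) did not pass either (adjusted p = 0.324 in limma).

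The chains of type I collagen, the main fibril of bone, skin and scar, had differences below 0. Col1a1 gave log2 signals of 12.40, 11.48 and 11.99 in DT, against 12.39, 12.48 and 11.42 in PBS, with groups that overlapped and a difference of -0.14 (SE 0.30, adjusted p = 0.811 in limma). With scaling to a common median this value was 0.08, below the 0.17 of the median gene under that scaling. With 1 array left out it ran from -0.48 to 0.10, so that its sign is not settled. Col1a2 lay above background on 2 DT arrays and 1 PBS array, with a difference of -0.15 (SE 0.27). Col11a1, a chain of cartilage fibrils, was likewise above background on 2 DT arrays and 1 PBS array (0.42, SE 0.21). Col5a3 was above background on 1 DT and 1 PBS array and was not tested.

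Of the other collagens, 5 of 7 had a named probe, all 5 were measured, none passed, and their median was 0.06 on the log2 scale. Type VI collagen forms beaded filaments that link cells to the fibrils around them. Its chain Col6a2 had log2 signals of 12.21, 11.93 and 12.06 in DT, against 11.72, 11.77 and 11.01 in PBS. The DT arrays were all higher, PBS replicate 3 stood far below the other PBS arrays, and the difference was 0.57 (SE 0.21, adjusted p = 0.150 in limma). Without PBS replicate 3 it was 0.32, with an adjusted p of 0.367 in limma. Col6a1, a partner chain of Col6a2, had log2 signals of 13.96, 14.00 and 13.76 in DT, against 13.86, 13.54 and 13.20 in PBS, which overlap (0.38, SE 0.19). Col7a1, the anchoring fibril of skin, Col16a1, a fibril-associated collagen, and Col8a1, a network collagen of vessel walls, lay between -0.06 and 0.06. No probe is named here for Col6a3 and Col12a1.

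Of the 14 basement membrane genes 10 were measured, with a median difference of 0.38 on the log2 scale. Of these, 9 were above 0 (90.0%, against 51.3% of all genes) and 1 was called higher (10.0%, against 0.327%). Lama2 is the long chain of the laminin of muscle, nerve and mesenchymal basement membranes. Its log2 signal was 6.19, 6.92 and 5.98 in DT, against 5.35, 4.45 and 4.51 in PBS. The DT arrays were all higher, and the difference corresponds to 3.01-fold. The probe was above background on 3 DT arrays but only on 1 PBS array, its bead signals were 171.3, 275.9 and 184.1 in DT, against 168.1, 123.2 and 141.9 in PBS, and without background correction the difference was 0.54. A second Lama2 probe was above background on 2 DT arrays and on no PBS array, with mean log2 signals of 5.16 ± 0.30 in DT and 4.74 ± 0.25 in PBS (SD, n = 3), and was not tested. The calls of Lama2 and Col5a2 both ended without DT replicate 1, DT replicate 2, PBS replicate 2 or PBS replicate 3, with adjusted p-values in limma of 0.0715 to 0.199 for Lama2 and 0.0739 to 0.199 for Col5a2.

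Col4a5 encodes a chain of the type IV collagen of kidney and other specialised basement membranes. Its log2 signal was 11.47, 11.73 and 11.01 in DT, against 10.82, 10.16 and 10.19 in PBS. The groups did not overlap, and the difference of 1.02 (SE 0.23) fell just short of the threshold (adjusted p = 0.0573 in limma). The second, dimmer Col4a5 probe gave 9.24 ± 0.42 in DT and 7.87 ± 0.41 in PBS (SD, n = 3), a difference of 1.37 that passed when every probe was tested on its own (adjusted p = 0.0434 in limma, where 1.35% of 17759 probes were called, 0.456% higher and 0.895% lower).

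Col4a1 and Col4a2, the chains of the common type IV collagen of all basement membranes, are neighbours that are read in opposite directions from starts 21 bases apart. Their annotated transcripts overlap in their first bases. The stretch with both annotated starts in capitals is shown because one short region holds the starts of both genes (RefSeq, GRCm38.p6, chr8:11312801-11312830, plus strand; Col4a2 starts at the left capital and Col4a1 at the right one).
Col4a2 and Col4a1 starts: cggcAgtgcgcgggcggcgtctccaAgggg
Col4a1 had log2 signals of 12.06, 12.17 and 11.70 in DT, against 11.53, 11.87 and 11.52 in PBS. Col4a2 had 11.39, 11.15 and 10.46 in DT, against 10.10, 11.05 and 10.08 in PBS. In both genes PBS replicate 2 was the highest PBS array and DT replicate 3 the lowest DT array, the groups overlapped, and the differences of 0.34 (SE 0.18) and 0.59 (SE 0.30) did not pass (adjusted p = 0.280 and 0.262 in limma).

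The 250 bases before the annotated starts are shown for Lama2, which was called, for Col4a5, both probes of which had separate groups, and for Col3a1, the neighbour of Col5a2 and a fibrillar collagen like it (RefSeq, GRCm38.p6). Capitals mark the exact letters TATAAA, the core of the TATA box, on either strand. They also mark CCAAT, the letters bound by the factor NF-Y, on either strand. Capitals further mark GGGCGG, the GC box bound by Sp1, on either strand. No match overlapped another.
Lama2, chr10:27616943-27617192, minus strand: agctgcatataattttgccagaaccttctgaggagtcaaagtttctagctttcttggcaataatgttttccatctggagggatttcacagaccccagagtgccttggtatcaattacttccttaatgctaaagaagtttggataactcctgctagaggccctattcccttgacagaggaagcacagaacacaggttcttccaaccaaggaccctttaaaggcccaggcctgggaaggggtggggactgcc
Col4a5, chrX:141475169-141475418, plus strand: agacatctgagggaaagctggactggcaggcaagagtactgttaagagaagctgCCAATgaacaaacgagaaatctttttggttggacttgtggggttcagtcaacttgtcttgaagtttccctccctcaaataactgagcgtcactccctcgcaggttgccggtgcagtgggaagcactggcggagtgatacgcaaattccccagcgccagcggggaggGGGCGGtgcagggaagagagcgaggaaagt
Col3a1, chr1:45311288-45311537, plus strand: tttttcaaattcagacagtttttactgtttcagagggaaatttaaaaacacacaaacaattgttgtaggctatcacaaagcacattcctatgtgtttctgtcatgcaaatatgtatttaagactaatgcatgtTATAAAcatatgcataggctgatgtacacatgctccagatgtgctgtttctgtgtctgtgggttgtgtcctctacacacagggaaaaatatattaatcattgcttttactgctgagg
The Lama2 window held none of these letters, the Col4a5 window held the letters CCAAT and GGGCGG, and the Col3a1 window held the letters TATAAA. In Col3a1 the match lay near the middle of the window, away from the annotated start. In Col4a5 the letters CCAAT lay far from the start and GGGCGG close to it. These are matches of letters only, and whether any of them acts in a promoter was not tested. Of all 32851 windows of this length, 12.4% hold TATAAA, 33.8% CCAAT and 32.7% GGGCGG. Col3a1 and Col5a2 lie next to each other on chromosome 1, as do Col6a2 and Col6a1 on chromosome 10.

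Laminin chains other than Lama2 gave smaller differences. Lamc1, the gamma chain shared by most laminins, had log2 signals of 10.97, 11.29 and 10.85 in DT, against 10.94, 10.34 and 10.55 in PBS, a difference of 0.43 (SE 0.19, adjusted p = 0.213 in limma) between groups that overlapped. Lamb1, the common beta chain, gave 0.42 (SE 0.20, adjusted p = 0.231 in limma), and Lamb2, the beta chain of the muscle synapse, gave 0.02 (SE 0.20). Lama4, a chain of vessel walls, was above background with 1 of 5 probes on 1 DT array, at log2 signals of 5.28, 4.48 and 4.52 in DT, against 4.52, 5.01 and 4.69 in PBS, and was not tested. The same holds for Lama5, the main epithelial chain, above background on 1 DT and 1 PBS array.

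Hspg2, which encodes the proteoglycan perlecan, filters growth factors and charges the membrane. Its log2 signal was 12.56, 12.71 and 12.51 in DT, against 12.81, 12.20 and 12.41 in PBS, with a difference of 0.12 (SE 0.18) and overlapping groups. Col18a1, the source of endostatin, was lower on every DT array, at 11.88, 12.04 and 11.96 in DT, against 12.33, 12.05 and 12.09 in PBS. The gap was small, and the difference of -0.19 (SE 0.15) did not pass (adjusted p = 0.461 in limma). With scaling to a common median it was 0.057, below the 0.17 of the median gene under that scaling. A second Col18a1 probe gave 0.14 (SE 0.17) with overlapping groups. Nid1, which ties laminin to type IV collagen, gave 0.30 (SE 0.21). Col15a1 and Nid2 were not above background on any array.

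Of 6 cross-linking and folding genes 5 were measured, none had an unadjusted p under 0.05, and the values ran from -0.37 to 0.33 with a median of 0.21 on the log2 scale. Serpinh1, which encodes the collagen chaperone Hsp47, was bright and steady, with log2 signals of 13.70, 13.50 and 13.62 in DT, against 13.76, 13.51 and 13.39 in PBS (difference 0.05, SE 0.16). Lox, a lysyl oxidase, was dim, with 5.18, 5.42 and 5.50 in DT, against 5.28, 5.05 and 4.79 in PBS, and lay above background on 3 DT arrays and 1 PBS array (0.33, SE 0.17, adjusted p = 0.280 in limma). Loxl1, its relative in elastic fibres, gave 0.21 (SE 0.16), and the lysyl hydroxylase Plod1 gave 0.29 (SE 0.18). No probe is named here for Loxl2.

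Plod2, the lysyl hydroxylase that modifies the ends of collagen chains, turned on 1 array. Its log2 signal was 8.60, 8.15 and 8.40 in DT, against 8.38, 9.60 and 8.29 in PBS. PBS replicate 2 alone stood above the rest, the difference was -0.37 (SE 0.31), and without that array it was 0.05. P4ha2, a prolyl hydroxylase outside the members, gave a difference of -0.995 (SE 0.27, adjusted p = 0.0776 in limma) with no overlap. P4ha1, another prolyl hydroxylase, went the other way, at 0.53 (SE 0.18, adjusted p = 0.126 in limma), also with no overlap.

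Of 12 glycoprotein, proteoglycan and elastic fibre genes 9 were measured, none passed, and the median was 0.34 on the log2 scale. Of the 9, 6 were above 0 (66.7%, against 51.3% of all genes) and 3 below. Sdc1, the surface proteoglycan syndecan that binds matrix and growth factors, had log2 signals of 6.65, 7.14 and 6.26 in DT, against 5.99, 5.14 and 5.24 in PBS. All DT arrays were higher, 2 of the 3 PBS arrays were above background, and the difference of 1.23 (SE 0.27) fell just short (adjusted p = 0.0568 in limma). Without background correction it was 0.45.

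Sparc, a collagen-binding protein of remodelling tissue, had log2 signals of 12.67, 12.34 and 12.15 in DT, against 11.98, 11.88 and 11.53 in PBS. The groups did not overlap, with a difference of 0.59 (SE 0.19, adjusted p = 0.108 in limma). Its 3 probes were all higher, and one of them passed when every probe was tested (0.87, adjusted p = 0.0473 in limma). Thbs2, a thrombospondin that limits vessel growth, had log2 signals of 12.08, 12.19 and 11.65 in DT, against 11.75, 11.17 and 11.05 in PBS, where DT replicate 3 lay below PBS replicate 1 (0.65, SE 0.22, adjusted p = 0.122 in limma). Thbs1, its relative that activates TGF-beta, gave -0.02 (SE 0.27), with PBS replicate 2 the highest array. With scaling to a common median it was 0.083, below the 0.17 of the median gene under that scaling.

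Tnc, which encodes tenascin, a protein of wounds and tumour stroma that loosens cell adhesion, had the lowest difference among the members. Its log2 signal was 6.83, 6.66 and 7.36 in DT, against 7.80, 7.93 and 7.59 in PBS. Every DT array was lower, the difference was -0.82 (SE 0.20), and it did not pass (adjusted p = 0.0613 in limma). The other measured Tnc probe gave -0.91 (SE 0.23). Without DT replicate 3 the first probe did pass (-1.03, adjusted p = 0.0245 in limma), and without background correction it passed at -0.47 (adjusted p = 0.0428 in limma).

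Fn1, fibronectin, which starts the assembly of many matrices, gave 0.44 (SE 0.21, adjusted p = 0.243 in limma), Vcan, the proteoglycan versican, 0.15 (SE 0.15), Eln, elastin, 0.34 (SE 0.31) and Fbln1, a fibulin of elastic fibres, -0.15 (SE 0.20). Postn, the marker of activated stroma periostin, and Fbln2 had 3 probes each, none of them above background on any array. Fbn1 has no probe named here.

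**Figure D2:**
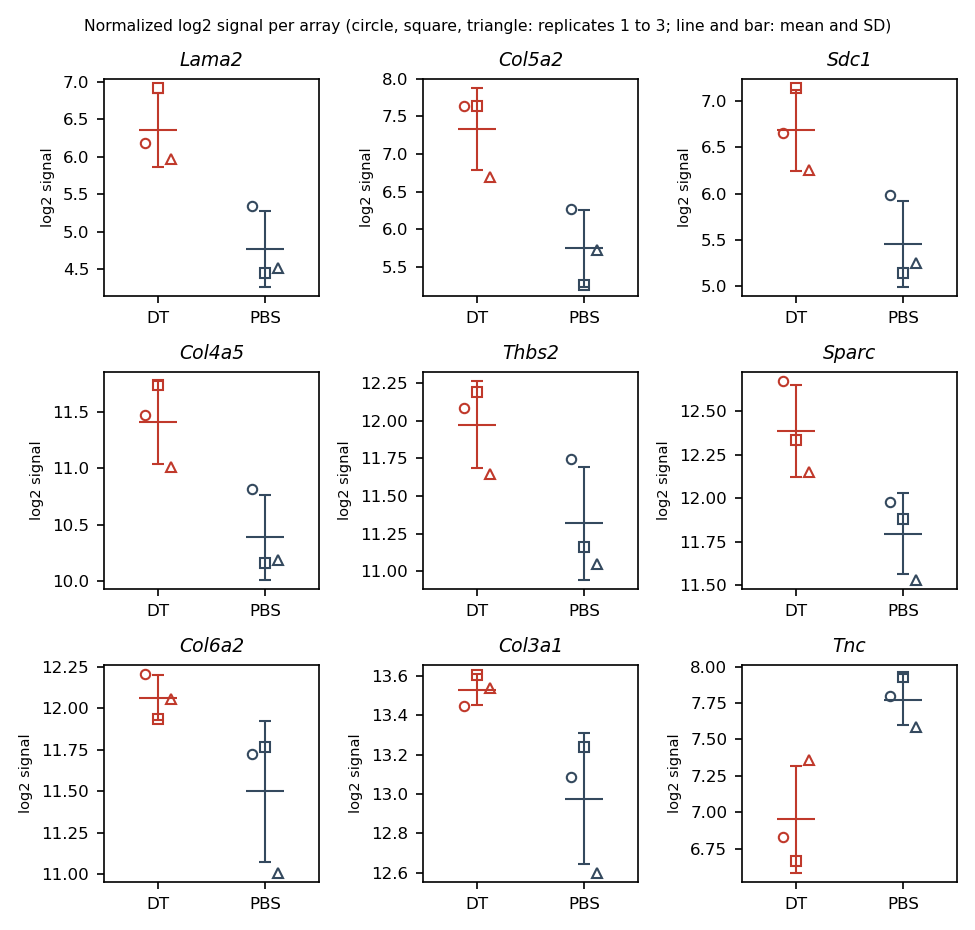
Normalized log2 signal on each array for the 9 members with an unadjusted p under 0.05, DT left and PBS right; open symbols are replicates 1 to 3, and lines and bars are means and SD. The axes differ between panels and do not start at 0; in Thbs2 the groups overlap, in Tnc all DT arrays are lower, and in the other 7 genes all DT arrays are higher.

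The ratio of the signals of 2 chains within each array was compared between groups for 7 pairs, chosen after the values were known. In 6 of them the chains can share a molecule, while Col4a5 and Col4a1 belong to separate trimers of the type IV collagen family. The ratio of Col5a2 to Col5a1 was 1.32 higher in DT on the log2 scale, at 1.62, 1.70 and 0.65 in DT, against 0.36, -0.36 and -0.01 in PBS, relative to the PBS mean. The ratio of Col4a5 to Col4a1 was 0.68 higher. In both pairs the groups did not overlap, which gives p = 0.1 in a two-sided exact permutation test, and 0.233 after adjustment over the 7 pairs. This is the smallest unadjusted p that 3 arrays against 3 allow. Col5a2 and Col4a5 were already seen to have separate groups when the pairs were chosen, so the p only describes the arrays. With scaling to a common median and with the deposited normalized values, the groups overlapped for Col4a5 to Col4a1 (0.69 and 0.695, exact permutation p = 0.2 each). For Lama2 to Lamc1 no size is given, since the Lama2 probe exceeded background on only 1 of 3 PBS arrays, and its groups overlapped without background correction. The ratios of Col4a2 to Col4a1 (0.25), Col6a2 to Col6a1 (0.19), Lamc1 to Lamb1 (0.01) and Col1a2 to Col1a1 (-0.01) overlapped, with exact permutation p-values from 0.2 to 1. Without background correction the change in the ratio of Col5a2 to Col5a1 was 0.45, and with the mean of all measured probes it was 0.69. Such a ratio shows unequal change only, and it does not compare the amounts of the chains.

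Several measured probes were present for 17 members, and in 11 of them all probes of the gene had the same sign. The probes of Col5a2 gave 1.58, 0.71 and 0.53, the smaller values coming from probes that did not pass (adjusted p = 0.138 each in limma over all probes). Col3a1 gave 0.56 and 0.82, Col6a1 0.38, 0.27 and 0.85, and Lamc1 0.43 and 0.69. Disagreement was clearest in Nid1, where 1 probe gave 0.30 and the other -0.54 with every DT array below every PBS array (adjusted p = 0.0907 in limma). Probes of both signs were also found for Col18a1, Col8a1 (-0.06 and 0.31) and Fbln1 (-0.25, -0.15 and 0.17). The 6 Vcan probes ran from -0.44 to 0.57 and the 4 Fn1 probes from -0.32 to 0.44. Which transcripts each probe reads was not tested, so that Nid1, Vcan, Fn1, Col18a1, Col8a1 and Fbln1 have no single direction here.

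**Figure D3:**
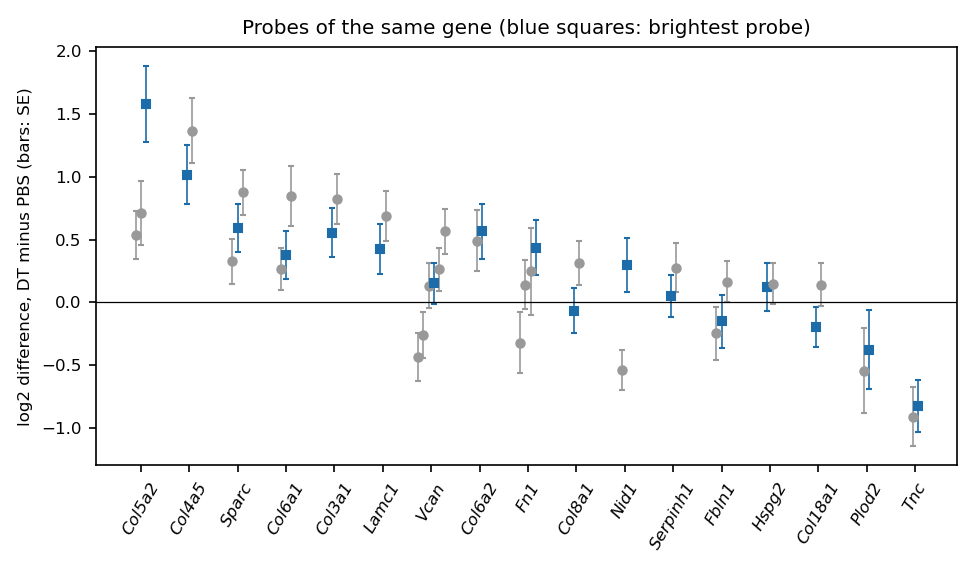
Difference in log2 signal, DT minus PBS, of every measured probe for the 17 members with several measured probes; blue squares are the brightest probe, used for the gene, grey circles the others, and bars are SE. Probes of Col5a2, Col4a5, Sparc, Col6a1 and Col3a1 lie above 0 and those of Tnc and Plod2 below, while probes of Nid1, Vcan, Fn1, Col18a1, Col8a1 and Fbln1 fall on both sides.

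Single arrays moved many members at once. PBS replicate 3 was the lowest of the 6 arrays in 20 of 35 members, where it was the lowest in 13.4% of all genes, and DT replicate 2 was the highest in 12, where it was the highest in 21.9% of all genes. The average over the measured members, taken relative to PBS, stood at 0.35, 0.37 and 0.22 in the DT arrays, against 0.18, 0.06 and -0.24 in the PBS arrays. PBS replicate 1 therefore lay close to DT replicate 3. Without PBS replicate 3 the median of the list was 0.20, none of its genes passed, and 5 had an unadjusted p under 0.05 in the higher direction. The basement membrane mean was 0.51, 0.63 and 0.25 in DT, against 0.10, 0.05 and -0.16 in PBS, and the fibrillar mean 0.48, 0.33 and 0.44 in DT, against 0.33, -0.04 and -0.29 in PBS, where DT replicate 2 and PBS replicate 1 were nearly level.

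**Figure D4:**
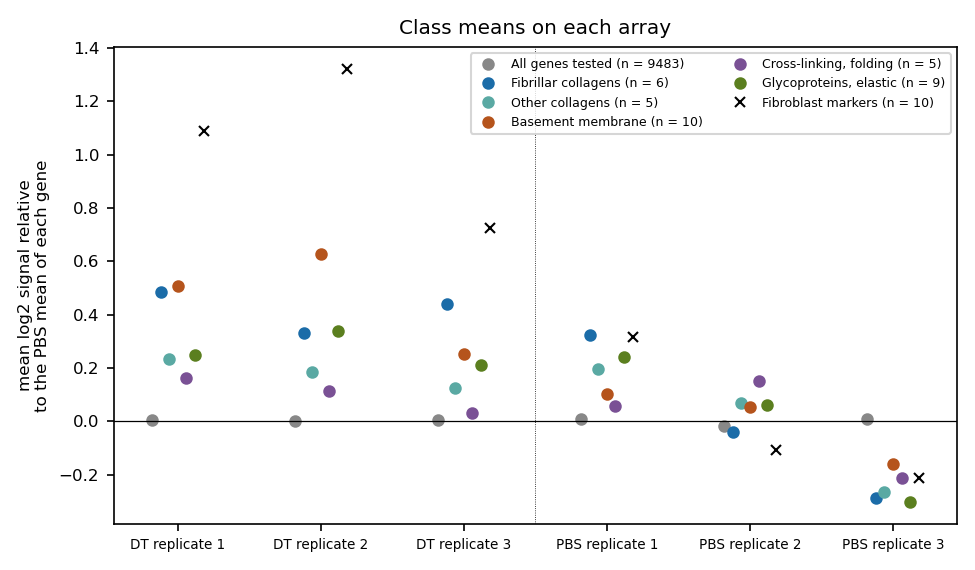
Mean log2 signal of each class of matrix genes on each array, relative to the PBS mean of each gene, with all genes tested in grey and fibroblast markers as crosses; n is the number of measured genes. The classes lie above 0 in all DT arrays and also in PBS replicate 1, and PBS replicate 3 has the lowest class means. DT replicate 3 lies below a PBS array in the other collagens (0.13, PBS replicate 1 0.20) and the glycoproteins (0.21, PBS replicate 1 0.24). The same holds for the cross-linking and folding genes (0.03, PBS replicate 2 0.15). DT replicate 2 also lies below PBS replicate 1 in the other collagens (0.18) and below PBS replicate 2 in the cross-linking and folding genes (0.11).

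The levels of markers of other cell types are given beside the matrix genes, and genes passed the threshold only on the fibroblast and neutrophil lists. Of 21 markers of fibroblasts and stellate cells, 10 were measured, and all 10 had a difference above 0, against 51.3% of all genes. Their median was 0.90, but the list was chosen with earlier results known, so neither value is a test. The summed signal was 19954 to 24022 in DT, against 14282 to 18666 in PBS. Most of it came from Dcn, at mean log2 signals of 13.9 in DT and 13.7 in PBS. Dpt (1.74, SE 0.17), Islr (2.18, SE 0.40) and Omd (1.88, SE 0.36) rose (adjusted p = 0.00671, 0.0459 and 0.0459 in limma), but they were put on the list with these rises known. Pi16 (1.81, SE 0.40) and Mfap4 (1.27, SE 0.34) also had large differences but did not pass. The other measured markers were Lum (0.53) and the broad mesenchymal genes Dcn (0.26), Pdgfra (0.50), Pdgfrb (0.13) and Acta2 (0.16), and none of them passed. Des, Tcf21, Lrat, Reln, Lhx2, Hand2, Rgs5 and Gli1, which include the defining genes of stellate cells, did not exceed background on any array. The part of fibroblasts in the values of the matrix genes was not tested.

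Macrophage markers had 10 of 11 measured genes below 0, which leaves 9.09% above 0, against 51.3% of all genes. Their summed signal was 1479 to 1890 in DT, against 1898 to 4764 in PBS. PBS replicate 3, the array with the lowest matrix values, had the 1898. Laptm5 (-1.36) and C1qb (-1.10) had the smallest p, and neither passed (adjusted p = 0.0601 and 0.0607 in limma). Summed neutrophil markers were 1499 to 3109 in DT, against 375.2 to 919.1 in PBS. Lcn2, Retnlg and S100a8 passed the threshold (42.9% of the 7 measured, against 0.327% of all genes called higher). Of the 7, 5 were above 0 (71.4%, against 51.3% of all genes). Lcn2 and Retnlg were above background on no PBS array. Csf3r (-0.50, SE 0.16, adjusted p = 0.113 in limma) was lower on every DT array, and Elane gave -0.21 (SE 0.19). Endothelial markers summed to 943.7 to 1180 in DT, against 1429 to 1582 in PBS, with only Stab1 (-0.50) and Clec4g (0.04) measured. Most of that sum was Stab1, at mean log2 signals of 9.93 in DT and 10.43 in PBS. Cdh5, Tek, Tie1, Lyve1, Vwf and Emcn were not above background on any array. Hepatocyte markers summed to 407.8 to 580.0 in DT, against 536.9 to 905.3 in PBS (Apoa2 0.68, Arg1 -0.60). Most of that sum was Arg1, at mean log2 signals of 8.52 in DT and 9.12 in PBS. Platelet markers summed to 110.2 to 148.2 in DT, against 184.9 to 266.6 in PBS (Pf4 -0.81, Itga2b -0.47). Epithelial markers summed to 125.2 to 143.5 in DT, against 111.8 to 149.6 in PBS (Cdh1 0.17, Cldn7 0.17). No hepatocyte, platelet or epithelial gene passed the threshold.

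Genes around the members gave no single direction. Of 27 further genes of collagen and matrix biosynthesis, 19 were measured and none passed, with a median of -0.02 on the log2 scale. At an unadjusted p under 0.05, 6 were higher (31.6%) and 2 lower (10.5%), against 12.0% and 11.9% over all genes. Fkbp14, a prolyl isomerase that folds collagen, gave 1.17 (SE 0.29, adjusted p = 0.0629 in limma), next to the value of P4ha2 given above. Of 68 other collagen, laminin and glycoprotein genes, 62 had a probe and 32 were not above background on any array, among them Col4a6, the neighbour of Col4a5 that is read the other way. Of the 19 measured, 1 rose (5.26%, against 0.327% of all genes), with a median of 0.23. That gene was Dpt, dermatopontin, which binds to collagen fibrils, and Emilin1, a glycoprotein of elastic fibres, gave 0.68 (SE 0.16, adjusted p = 0.0573 in limma). Agrn, a basement membrane proteoglycan, went the other way from Lama2 and Col4a5, at -0.94 (SE 0.22, adjusted p = 0.0576 in limma). Of 14 matrix receptors outside the integrins, 9 were measured and none passed (median -0.22). Sdc2, a syndecan like Sdc1, gave 0.75 (SE 0.17, adjusted p = 0.0573 in limma), and Cd47, a receptor for thrombospondin, gave 0.60 (SE 0.15, adjusted p = 0.0629 in limma).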

How the data were processed

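Sorted MC38 cells of 3 DT and 3 PBS samples were measured on 6 Illumina bead arrays. Each probe has a mean bead intensity on a linear scale and a detection p-value, as the authors deposited them, per the file headers. The authors also deposited normalized log2 values, with no account of their making given in the sources used here, and these served as an alternative. Genes came from the platform annotation, updated through Entrez identifiers (34885 of 45281 probes with 1 gene). The neqc function (limma 3.58.1, R 4.3.3) processed the signals (normexp from the detection p-values, offset 16, quantile, log2). Probes with a detection p under 0.05 on 3 arrays were kept (17759), and the brightest probe stood for a gene (9483). The model contrasted DT and PBS (lmFit, then eBayes, two-sided) with Benjamini-Hochberg adjustment over all genes and a threshold of 0.05. The offset shrinks differences of dim genes. Summed marker signals are linear, less the offset, over the brightest probe of each gene.

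The members and lists were chosen with earlier results of these data known. Every member is accounted for, with arrays given for members with an unadjusted p under 0.05 and for the brightest and the smallest-p member of each class; some others were added after their values were seen. The DT against PBS procedure was tested on simulated data of 11782 genes. It found 1 of 78 genes given a log2 change of 0.5, 17 of 57 given a change of 1, and 56 of 61 given a change of 2, while 1 of its 75 calls was false. The simulated noise was independent between probes and arrays, with no shift of a whole array, and its spread was drawn without regard to brightness. These rates may therefore not hold for the real arrays. Replicates were set against each other by their deviations from the group means, and same-numbered arrays correlated at -0.10, -0.18 and 0.03. The arrays thus gave no sign of pairing by number, but 3 arrays per group cannot settle whether samples were handled in pairs. Figures were drawn with matplotlib 3.10.9.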

Additional observations from a re-analysis of the deposited data

How the results depend on the processing

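A replicate block left 30 genes of the series and 0 members past the threshold (adjusted p = 0.0623 for Lama2 and 0.0617 for Col5a2 in limma). The pairing of replicate numbers is not borne out by the arrays. The median of the members stayed above that of all genes in all 16 alternatives, by 0.18 to 0.40 on the log2 scale. All alternatives reuse the same arrays, and the members were chosen with earlier results of these data known, so this is not independent support. The cause of the shifts below was not tested. By their settings, leaving out an array leaves fewer samples, and no filter adds dim genes. Genes past the threshold in limma, 103 in all, were 558 without background correction, 654 with a normexp offset of 50, 27 with scaling to a common median, 313 with the deposited normalized values, 0 with no filter, 264 with a detection p under 0.01, 187 with every probe tested, 1059 with array weights and 0 to 424 with 1 array left out. Members higher in DT, 2 in all, were 4 without background correction, 5 with the offset of 50, 4 with the deposited values, 0 with no filter, 4 with a detection p under 0.01, 1 with the mean of all probes, 4 with every probe, 8 with array weights and 0 to 4 with 1 array left out. Tnc, the 1 member called lower in any of them, was so without background correction, with the offset of 50, with array weights and in 1 of the 6 fits without an array (0 to 1 members). Arrays were filtered and normalized anew for each fit without an array. The basement membrane median was 0.57 with scaling and 0.21 with no filter, that of the other collagens 0.31 with every probe and -0.014 to 0.20 with 1 array left out (below 0 without DT replicate 1), that of the fibrillar collagens 0.25 to 0.52 with 1 array left out (highest without DT replicate 2), and that of the glycoproteins 0.13 with the mean of probes, 0.62 with array weights and 0.10 to 0.46 with 1 array left out. Lama2 and Col5a2 stayed above 0 in all of them, while signs turned in values that did not pass. With scaling (median gene 0.17, with only Col16a1 above it) these were Col16a1 (0.21), Col18a1 (0.057), Col1a1 (0.082), Col8a1 (0.16), Fbln1 (0.025) and Thbs1 (0.083). With the deposited values they were Col16a1 (0.064) and Col8a1 (0.011), with the mean of probes Col8a1 (0.12) and Nid1 (-0.12), with every probe Col8a1 (0.31), Nid1 (-0.54) and the ratio of Col6a2 to Col6a1 (-0.28), and with array weights Col16a1 (0.082), Col1a1 (0.17), Col8a1 (0.041) and Thbs1 (0.27). The ratio of Col1a2 to Col1a1 was 0.092 without background correction and 0.055 with the offset of 50. With 1 array left out, Col16a1 ran from -0.17 to 0.11, Col1a1 from -0.48 to 0.10, Col1a2 from -0.34 to 0.030, Col7a1 from -0.062 to 0.20, Col8a1 from -0.16 to 0.086, Eln from -0.031 to 0.68, Fbln1 from -0.32 to 0.0096, Hspg2 from -0.017 to 0.29, Lamb2 from -0.20 to 0.19, Plod2 from -0.60 to 0.049, Serpinh1 from -0.033 to 0.17, Thbs1 from -0.28 to 0.32, the ratio of Col1a2 to Col1a1 from -0.33 to 0.39 and that of Lamc1 to Lamb1 from -0.32 to 0.26.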
